A study of Mus musculus with 40 samples.

Results

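Genomic regions where peaks of CTCF, PU.1, C/EBPb and SMARCA5 meet were described in mouse bone marrow-derived macrophages. All peaks of the 4 consensus lists on chromosomes 1 to 19 and X were merged into union regions, with any peaks that shared at least 1 bp joined, and regions that held at least 1 peak of every list were kept. This gave 3103 regions of 92385, or 3.36% (95% interval 3.24 to 3.48). They are called 4-protein regions here. Bracketed ranges are 95% intervals over regions, which are not biological replicates, so they describe these lists and not the spread between animals. The regions were chosen by the overlap of measured peak positions, so the presence of the 4 proteins is a definition and not a result, and widths, peak numbers and distances are given as descriptions with no test.

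CTCF is a zinc-finger protein that blocks loop extrusion by cohesin and marks insulators and loop anchors, often shared between cell types. PU.1 is the ETS factor that opens enhancers in myeloid cells, and C/EBPb is a leucine-zipper factor that joins it at many macrophage enhancers. SMARCA5, also called SNF2H, is an ATPase of the ISWI family that slides and spaces nucleosomes, and in mammalian cells it is known to be needed for normal CTCF binding and for the nucleosome arrays beside it. In regions with all 4 proteins, listed peaks of an architectural factor, of lineage factors and of a remodeller are joined by overlap.

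The macrophages came from Smarca5 knockout animals, with floxed Smarca5 (Smarca5lox/lox) and Csf1r-Cre, and from wild-type animals that also carried Csf1r-Cre. Cells of both genotypes received 4-hydroxytamoxifen daily over the 7 days of differentiation, and Csf1r drives expression in the myeloid lineage. CTCF, PU.1 and C/EBPb were each profiled in 2 knockout and 2 wild-type libraries from untreated cells, on sonicated chromatin per the labels. SMARCA5 was profiled after micrococcal nuclease digestion in 8 libraries, 4 per genotype, from cells given lipopolysaccharide (LPS) at 10 ng/ml for 2 h or left untreated. The sources used here give neither the age nor the number of animals, and the H3K27ac libraries were not analysed here. Each list is 1 table for the series in which 0 value columns belong to a library, and how libraries were combined is not stated, so a region may hold peaks from different genotypes or stimuli, no genotype or stimulus was compared, and the cells' identity could not be checked by markers. Depth per library is unknown. The lists are on mm39, and since no gene annotation or genome of that build was used, regions are given by position without gene names or sequence.

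The 4-protein regions held 13.3% of CTCF peaks, 11.6% of C/EBPb peaks, 8.38% of SMARCA5 peaks and 6.52% of PU.1 peaks of the chromosomes used. Their make-up was 3352 CTCF, 4415 PU.1, 3572 C/EBPb and 3104 SMARCA5 peaks. Nearly every region held a single SMARCA5 peak, and 1 region held 2 of them. In 2451 regions, 79.0%, the SMARCA5 peak was also the outer boundary on both sides. PU.1 was the factor most often present more than once, with 1 peak in 66.1% of regions, 2 in 26.8% and 3 or more in 7.03%. C/EBPb had 1 peak in 85.9% and CTCF in 92.4%. The lists differ in size in the same order, with 67674 PU.1, 30895 C/EBPb and 25280 CTCF peaks on the chromosomes used. The part of list size in the number of peaks per region was not tested. The plainest form, 1 peak of each DNA-binding factor, made up 1762 regions or 56.8% (55.0 to 58.5). It was followed by 586 regions with a further PU.1 peak and otherwise 1 of each, 18.9%. A further C/EBPb peak alone was present in 157 regions and a further CTCF peak alone in 115.

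The 4-protein regions were wide, with a median of 3839 bp (3761 to 3906), quartiles of 2641 and 5476.5 bp, and a range from 527 to 38172 bp. Regions with SMARCA5, PU.1 and C/EBPb but no CTCF had a median of 3218.5 bp (3176 to 3262), those with SMARCA5, CTCF and PU.1 but no C/EBPb 2738 bp (2676 to 2805), and those with SMARCA5, CTCF and C/EBPb but no PU.1 2096 bp (1944 to 2249). A wide SMARCA5 peak can meet more factor peaks by its width alone, and asking for a further list selects for width. Within the 4-protein regions, width went with the number of factor peaks. The median was 3081 bp with 3 factor peaks, 4499.5 bp with 4, 5761.5 bp with 5 and 7851 bp with 6 or more (7173 to 9071, 141 regions). The median SMARCA5 fold enrichment differed little over these groups, from 2.06 with 3 factor peaks to 2.00 with 6 or more.

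The 3 factors did not usually share a single point. Each factor was represented by its peak of highest fold enrichment in the region, and the stretch between the outermost of the 3 summits had a median of 1175 bp (1114 to 1222) with quartiles of 474 and 2357 bp. All 3 summits lay within 100 bp in 150 regions, 4.83% (4.13 to 5.65), within 200 bp in 371 regions, within 500 bp in 26.2% and within 2000 bp in 69.3%. Distances can be no longer than the region, so these values also describe the merging rule.

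When SMARCA5 peaks were left out and only direct overlap of factor peaks counted, the layouts fell into a few kinds. At least 1 peak each of CTCF, PU.1 and C/EBPb overlapped in 1 chain in 1301 regions, 41.9% (40.2 to 43.7). In 986 regions, 31.8% (30.2 to 33.4), PU.1 and C/EBPb overlapped each other while CTCF stood apart and was joined only through SMARCA5. CTCF with PU.1 and a separate C/EBPb peak made up 5.74%, and CTCF with C/EBPb and a separate PU.1 peak 4.67%. Another 8.64% held 2 or more different touching pairs, and in 225 regions, 7.25%, no factors touched. In every layout but the first, the factor peaks formed at least 2 separate blocks that only the SMARCA5 peak joined. The factor peaks formed a single block in 890 regions, 28.7%, so some regions of the first layout also held further separate blocks. The median width was 2997 bp where all 3 touched, 4254 bp where CTCF stood apart, and 5602 bp where none touched.

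**Figure D1:**
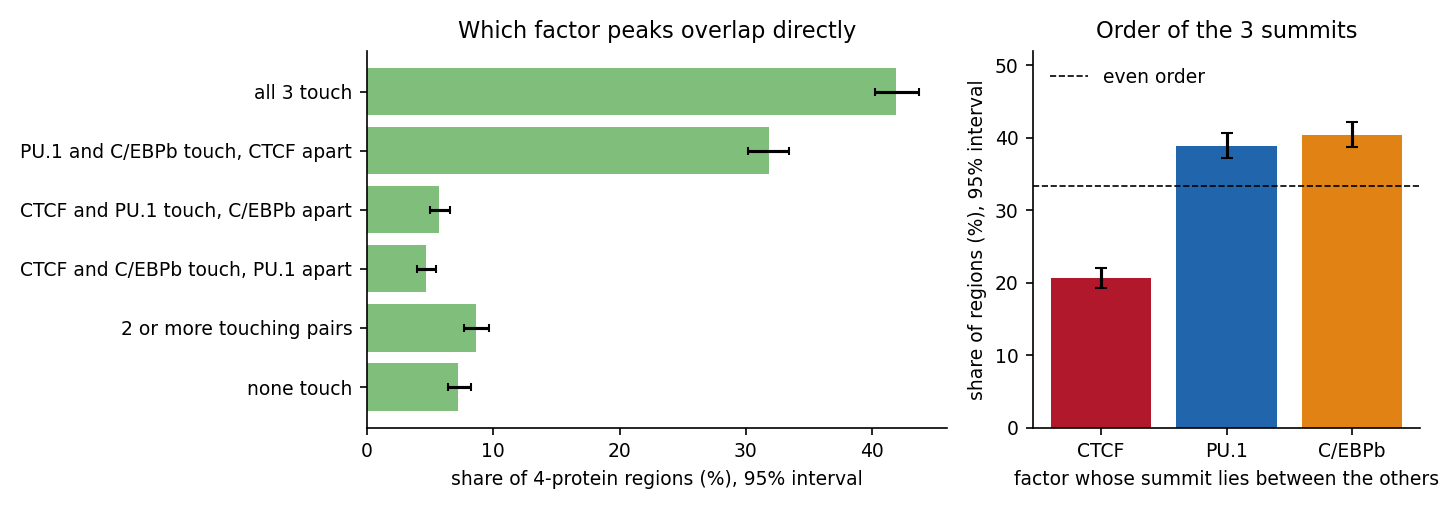
Left, the share of 3103 regions (%) in each layout of directly overlapping factor peaks, SMARCA5 left out. Right, the share (%) of 3094 regions in which each factor's summit lay between the other 2, with a dashed line at the 33.3% of an even order. Bars are shares with 95% Wilson intervals over regions. The leading layouts are all 3 touching at 41.9% and PU.1 with C/EBPb and CTCF apart at 31.8%, and CTCF lay between the others in 20.7%.

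CTCF was mostly at the end of the row. Among 3094 regions whose 3 summits differed in position, C/EBPb lay between the others in 1251 or 40.4% (38.7 to 42.2), PU.1 in 1203 or 38.9% (37.2 to 40.6) and CTCF in 640 or 20.7% (19.3 to 22.1), where an order without preference would give 33.3% each. Thus PU.1 and C/EBPb lay on the same side of CTCF in 79.3% of regions (77.9 to 80.7). Mirror images of an order were about equally frequent, as with 630 regions in the order CTCF, C/EBPb, PU.1 and 621 in the reverse. The share with CTCF in between was 20.8% (18.1 to 23.7) where the summits spanned up to 500 bp and 20.7% where they spanned more. With 1 peak of each factor it was 18.3% (16.6 to 20.2).

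The distances between summits followed the same division. PU.1 and C/EBPb summits had a median distance of 243 bp (214 to 276), CTCF and PU.1 797 bp (748 to 856), and CTCF and C/EBPb 770 bp (729 to 823). Summits of PU.1 and C/EBPb lay within 100 bp in 1186 regions, 38.2% (36.5 to 39.9), while the background over all 19424 regions that hold both was 53.4%. CTCF and PU.1 lay within 100 bp in 466 regions or 15.0% (13.8 to 16.3), against 30.4% of all 7497 regions with both. For CTCF and C/EBPb it was 464 regions, 15.0% (13.7 to 16.3), against 23.0% of all 4087. All 3 shares were below their background, which includes the 4-protein regions and also narrow regions without SMARCA5, where summits cannot lie far apart. In 234 regions with the 3 factors but no SMARCA5, of median width 626 bp, PU.1 and C/EBPb were also the closest pair. The median distances there were 60 bp (50 to 74) for PU.1 and C/EBPb and 90 bp (75 to 100) for CTCF and PU.1. For CTCF and C/EBPb it was 105.5 bp (83 to 132), so this ranking was not particular to 4-protein regions.

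Set beside regions with SMARCA5 and the same pair but lacking the remaining factor, the 4-protein regions had longer median distances for every pair when all widths were pooled. The PU.1 to C/EBPb distance was 243 bp at the median with CTCF in the region, against 105 bp (100 to 110) without it. CTCF and PU.1 stood 797 bp apart, against 387 bp (357 to 410) where C/EBPb was lacking. CTCF and C/EBPb stood 770 bp apart, against 263 bp (222 to 361) where PU.1 was lacking.

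Region width and extra peaks moved with this difference. With 1 peak of each protein present, PU.1 and C/EBPb stood 119.5 bp apart (105 to 137) in 1762 4-protein regions, against 80 bp (76 to 82) in 8084 regions without CTCF. In regions from 2000 bp to under 3000 bp wide the distance was 132 bp (112 to 165) in 4-protein regions, against 90 bp (85 to 98) without CTCF. From 3000 bp to under 4000 bp it was 160 bp (116 to 238) against 112 bp (104 to 130), where the intervals overlapped. From 4000 bp to under 6000 bp it was 407 bp (292 to 564) in 4-protein regions, against 197 bp (158 to 252) without CTCF. The CTCF to PU.1 distance was longer in 4-protein regions in each of 5 width groups, which ran from under 2000 bp to 6000 bp and over. It was 469 bp (413 to 522) in 4-protein regions against 347.5 bp (284 to 399) without C/EBPb from 2000 bp to under 3000 bp. From 3000 bp to under 4000 bp it was 798 bp (722 to 894) against 673 bp (484 to 811), where the intervals overlapped. From 4000 bp to under 6000 bp it was 1160 bp (1071 to 1301) against 1049.5 bp (932 to 1153), where they also overlapped. From 6000 bp it was 2149.5 bp (1948 to 2425) in 4-protein regions against 1817 bp (1538 to 2186), and the intervals overlapped again. Among regions with 1 peak of each protein it was 513 bp (462 to 571) in 4-protein regions against 285 bp (260 to 324). For CTCF and C/EBPb the direction varied with width, and from 2000 bp on the intervals overlapped in every width group. The distance was 241 bp (189 to 289) in 4-protein regions against 109 bp (81 to 192) without PU.1 below 2000 bp, but 458.5 bp (401 to 497) against 464.5 bp (257 to 650) from there to under 3000 bp, and 768 bp (666 to 861) against 958.5 bp (336 to 1405) from 3000 bp to under 4000 bp, where only 56 regions lacked PU.1. From 4000 bp to under 6000 bp it was 1130 bp (1041 to 1255) in 4-protein regions against 1036 bp (430 to 1515), and from 6000 bp 2026.5 bp (1846 to 2270) against 938.5 bp (25 to 3731) in only 6 regions without PU.1. Where each protein had 1 peak it was 529 bp (490 to 572) in 4-protein regions against 265.5 bp (213 to 361) without PU.1.

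**Figure D2:**
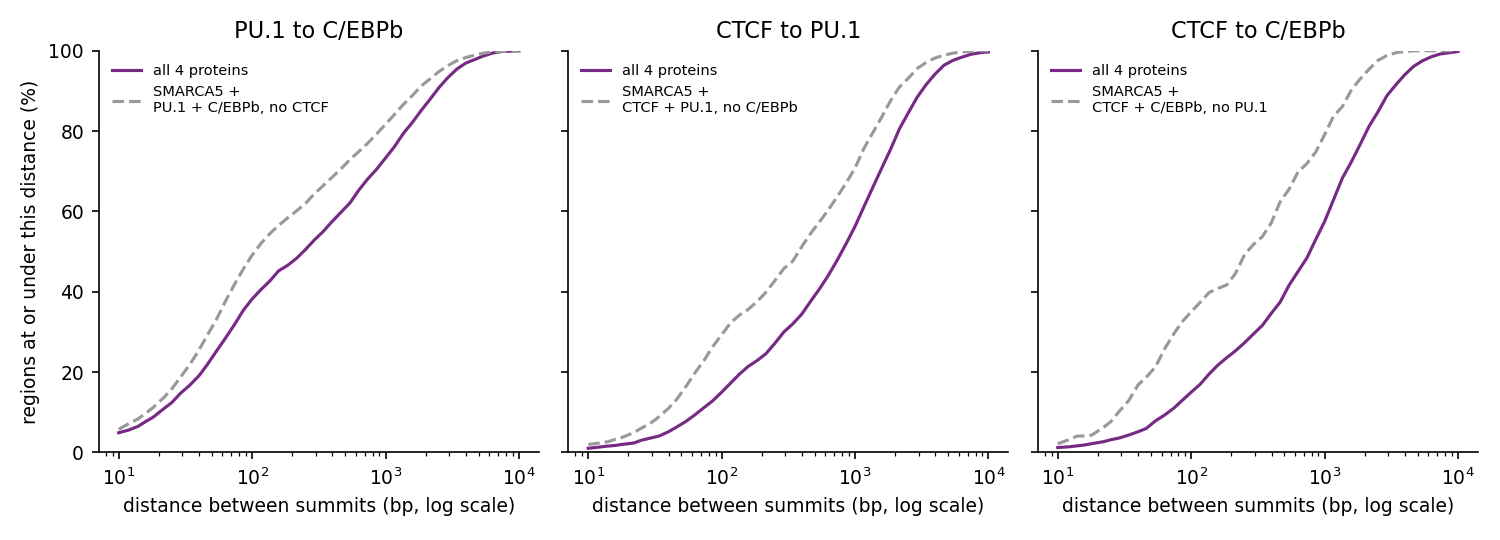
Cumulative share of regions (%) by the distance between the summits of the strongest peaks (bp, log scale), for PU.1 to C/EBPb, CTCF to PU.1 and CTCF to C/EBPb. Solid lines are the 3103 regions with all 4 proteins, and dashed lines are regions with SMARCA5 and the same pair but without the remaining factor. At 100 bp the solid lines are at 38.2%, 15.0% and 15.0%, and the dashed lines lie above them at 49.1%, 29.3% and 35.0%.

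Regions with several PU.1 peaks showed that the strongest peak was not always the one beside CTCF. In 833 regions with 2 PU.1 peaks, whose summits stood 1594 bp apart at the median (1473 to 1673), the CTCF summit was nearer to the stronger PU.1 peak in 45.4% (42.0 to 48.8) and the C/EBPb summit in 55.7% (52.3 to 59.0). The median fold enrichment of those PU.1 peaks was 13.2 for the stronger and 6.75 for the weaker. In 407 regions with 2 C/EBPb peaks, CTCF was nearer to the stronger of them in 49.6% (44.8 to 54.5) and PU.1 in 52.3% (47.5 to 57.1), and both intervals held 50%. When the closest summits stood for each pair, the medians were 110 bp for PU.1 and C/EBPb, 479 bp for CTCF and PU.1 and 614 bp for CTCF and C/EBPb, and CTCF lay between the others in 17.1%.

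All 3 summits lay inside 1 SMARCA5 peak in 2950 regions, 95.1% (94.3 to 95.8), but they were placed differently within it. Of summits inside the SMARCA5 peak, 62.9% of PU.1 summits (61.2 to 64.6) and 61.8% of C/EBPb summits (60.1 to 63.5) lay in its inner 50%. For CTCF this share was 52.8% (51.0 to 54.6), close to the 50% of even placement. The outermost 10% of the SMARCA5 peak at either end held 17.7% of CTCF summits (16.4 to 19.1), 9.03% of C/EBPb summits (8.06 to 10.1) and 8.85% of PU.1 summits (7.90 to 9.91), where even placement would give 20%. CTCF was the factor farthest from the SMARCA5 centre in 46.1% of regions (44.4 to 47.9), C/EBPb in 27.7% and PU.1 in 26.1%. The factor nearest to the SMARCA5 centre was CTCF in 30.2% (28.6 to 31.8), C/EBPb in 33.5% and PU.1 in 36.4%. PU.1 and C/EBPb summits often lay together, which leaves CTCF as the outlying summit, and the part of this in these shares was not tested. The median distance from that centre was 815 bp for CTCF, 710.5 bp for C/EBPb and 671 bp for PU.1. The same measure in regions lacking a factor was 55.0% of CTCF summits in the inner 50% without C/EBPb (53.2 to 56.8), 61.8% of CTCF summits without PU.1 (56.9 to 66.4), and 68.2% of PU.1 summits without CTCF (67.4 to 69.1). A peak caller places the ends of a broad peak by signal, so the position within the peak depends on that call.

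**Figure D3:**
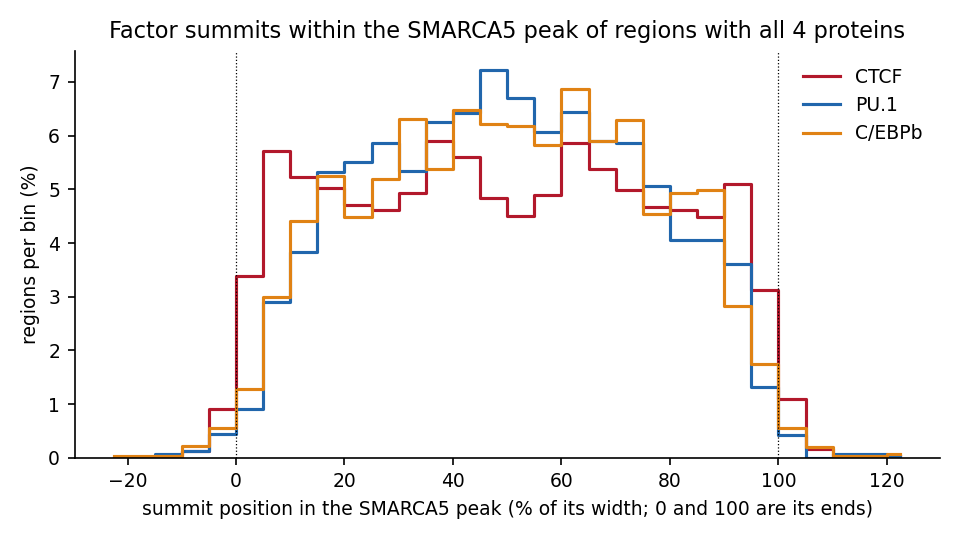
Share of 3103 regions (%) by the position of each factor's strongest summit along the SMARCA5 peak, in bins of its width, where 0 and 100 on the x axis are the ends of the peak. PU.1 and C/EBPb summits are most frequent around the middle, with 62.9% and 61.8% in the inner 50%, and CTCF summits are spread more evenly with 52.8% there.

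Peak strength was read from the authors' fold enrichment and -log10 q as the rank of a peak in its own list, where percentile 50 is the middle peak. PU.1 peaks in 4-protein regions had a median fold enrichment of 13.2 and stood at percentile 61.3 by fold enrichment and 71.5 by -log10 q. CTCF peaks had 12.5 (12.3 to 12.7), at percentiles 58.3 and 63.1. C/EBPb peaks had 11.5 (11.2 to 11.8), at percentiles 48.3 and 51.9, so they were middling in their list. SMARCA5 peaks split by measure, with a median fold enrichment of 2.04 at percentile 39.7 and a median -log10 q of 4.49 at percentile 67.9. These SMARCA5 peaks were wide, with a median of 3816 bp against 2452 bp for those elsewhere. Where a region held several peaks of a factor, these ranks are of the strongest. With 1 peak of each, the percentiles by fold enrichment were 62.5 for PU.1, 60.5 for CTCF, 46.5 for C/EBPb and 44.0 for SMARCA5.

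Ranks were also set beside those in regions that lacked a factor. PU.1 stood at percentile 61.3 by fold enrichment in 4-protein regions (60.1 to 63.0), against 69.5 without CTCF (68.9 to 70.3) and 52.3 without C/EBPb (50.1 to 53.8). CTCF stood at 58.3 (56.2 to 60.3), against 64.3 without C/EBPb (62.3 to 66.1) and 64.1 without PU.1 (58.2 to 67.8), the last with an overlapping interval. C/EBPb stood at 48.3 (46.2 to 50.6), against 53.4 without CTCF (52.4 to 54.5) and 50.4 without PU.1 (45.5 to 54.9), where the intervals overlapped. By -log10 q the direction for C/EBPb turned, with 51.9 (49.6 to 54.2) in 4-protein regions against 44.4 (37.7 to 50.7) without PU.1, and the intervals overlapped. Median ranks of PU.1 and C/EBPb peaks in 4-protein regions were thus lower than in regions with SMARCA5, PU.1 and C/EBPb but no CTCF. Other regions without CTCF were not ranked. With 1 peak of each protein, PU.1 stood at 62.5 in 4-protein regions against 72.4 without CTCF, and C/EBPb at 46.5 against 51.9. SMARCA5 ranked lower by fold enrichment in 4-protein regions, at 39.7 against 45.3 without CTCF, and higher by -log10 q, at 67.9 against 63.4. The SMARCA5 medians behind these ranks were close, at 2.04 against 2.06 in fold enrichment and 4.49 against 4.31 in -log10 q. The 2 kinds of region also differed in median width, at 3839 bp against 3218.5 bp.

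**Figure D4:**
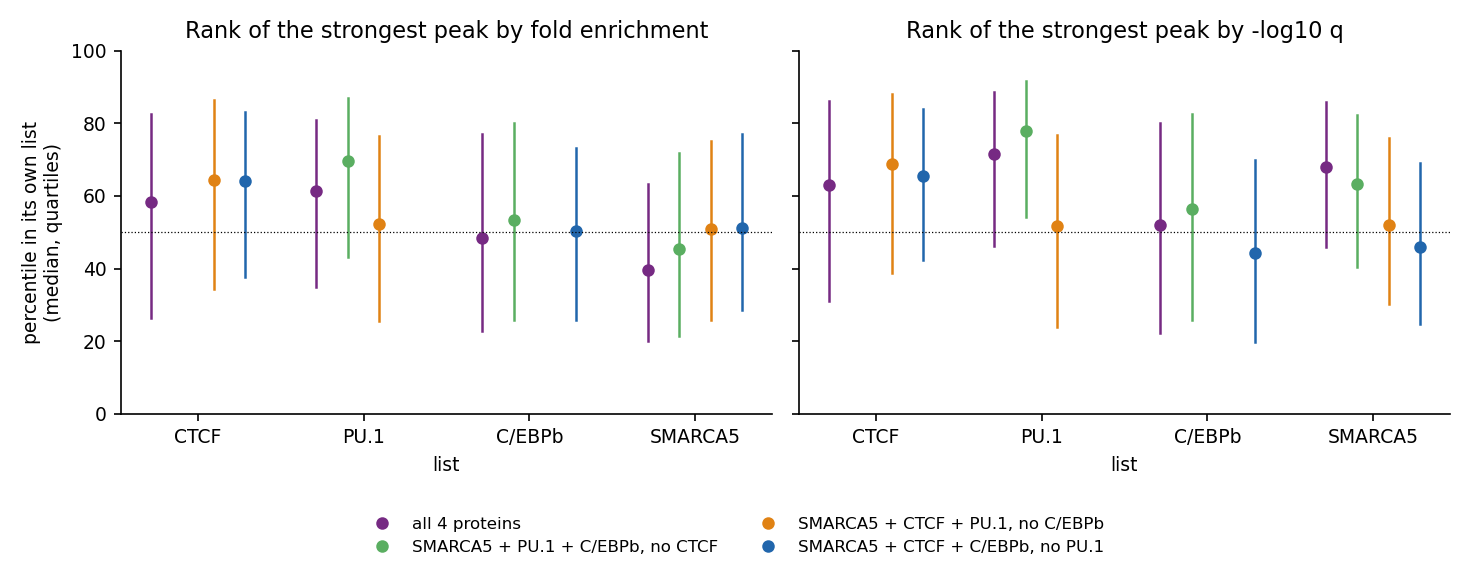
Percentile of the strongest peak within its own list (100 is the highest), by fold enrichment on the left and by -log10 q on the right, for regions with all 4 proteins and regions with SMARCA5 and 2 factors. Points are medians and lines join the quartiles. In 4-protein regions PU.1 stands at 61.3 and 71.5, C/EBPb at 48.3 and 51.9, and SMARCA5 at 39.7 by fold enrichment but 67.9 by -log10 q.

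Strength varied with layout. Where all 3 factor peaks touched, the median -log10 q of CTCF was 72.7, against 57.7 where CTCF stood apart from a PU.1 and C/EBPb pair. In the same 2 layouts the median was 41.0 and 57.8 for C/EBPb, 89.4 and 130.4 for PU.1, and 4.90 and 4.29 for SMARCA5. C/EBPb peaks with a CTCF summit within 100 bp had a median -log10 q of 36.0 (32.5 to 40.7), against 75.1 (67.1 to 90.5) beyond 2000 bp. CTCF peaks ran the other way, with 81.6 within 100 bp of a C/EBPb summit and 62.4 (57.0 to 66.9) beyond 2000 bp. PU.1 peaks with a CTCF summit within 100 bp had 70.7 (62.4 to 84.2), against 144.4 (123.7 to 161.5) beyond 2000 bp. By fold enrichment PU.1 hardly differed, at 13.1 (12.1 to 13.9) and 13.4 (12.9 to 14.1). By distance between PU.1 and C/EBPb summits, C/EBPb had a median -log10 q of 50.4 (45.7 to 57.9) within 100 bp and 68.6 (58.9 to 80.3) beyond 2000 bp. Higher C/EBPb values at long distance were thus not particular to CTCF. PU.1 had 115.7 (106.7 to 127.5) and 118.6 (102.5 to 137.6) at these distances from C/EBPb. The part of region width in these values was not tested.

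Across the 3103 regions the 4 strengths showed only weak rank correlations. Spearman's rho between percentiles by fold enrichment was 0.102 for PU.1 with C/EBPb, 0.0989 for PU.1 with SMARCA5, 0.0551 for CTCF with SMARCA5, 0.0105 for CTCF with PU.1, -0.0240 for CTCF with C/EBPb and -0.00220 for C/EBPb with SMARCA5. By -log10 q the highest were 0.170 for PU.1 with C/EBPb and 0.157 for PU.1 with SMARCA5. These are descriptions across regions that share the same lists, and regions are not replicates. Above percentile 50 in all 4 lists were 233 regions, 7.51% (6.63 to 8.49), while 194 regions, 6.25%, were at or under it in all 4. Above percentile 75 in all 4 lists were 14 regions, 0.451%. PU.1 was the factor of highest percentile in 36.1% of regions, CTCF in 35.8% and C/EBPb in 28.1%.

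The regions with the highest lowest rank over the 4 lists showed several layouts. On chromosome 4 from 55821895 to 55825542, where no list ranked below percentile 89.8, the PU.1, C/EBPb and CTCF summits followed each other within 85 bp, with 38 bp from PU.1 to C/EBPb and 47 bp from C/EBPb to CTCF. On chromosome 19 from 23735171 to 23739956 the factors did not touch, and the summits of CTCF, PU.1 and C/EBPb spanned 3690 bp. On chromosome X from 158897653 to 158900162 C/EBPb lay 86 bp from CTCF and 573 bp from PU.1. On chromosome 11 from 106309361 to 106312041 CTCF stood 634 bp from C/EBPb, and PU.1 followed 513 bp further on, with CTCF at a fold enrichment of 18.4, C/EBPb at 19.9, PU.1 at 23.7 and SMARCA5 at 2.41. On chromosome 1 from 45864124 to 45868228 the order was the same, with 1029 bp from CTCF to C/EBPb and 593 bp from there to PU.1, and fold enrichments of 17.8, 19.6 and 25.9 in that order.

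The tightest regions differed in how even the strengths were. On chromosome 5 from 77616075 to 77617036 the 3 summits lay within 10 bp, with PU.1 at a fold enrichment of 25.5, CTCF at 16.1 and C/EBPb at 7.70. On chromosome 13 from 58466948 to 58468155 they lay within 19 bp, and C/EBPb was the strong one at 28.1, while PU.1 had 14.7 and CTCF 11.7. Another region on chromosome 5, from 65465673 to 65466804, spanned 23 bp with PU.1 at 21.5 and CTCF at 7.60. Chromosome 7 held one from 127005057 to 127006593 with a span of 23 bp and more even values, with CTCF at 13.6, C/EBPb at 11.4 and PU.1 at 10.2. The last, on chromosome 2 from 5848931 to 5851203, spanned 25 bp within a width of 2273 bp, with PU.1 at 11.5 and C/EBPb at 8.46, and CTCF at percentile 62.5 of its list. Summits this close do not show whether the proteins bound the same DNA molecules, which was not tested.

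At the other extreme, the 3 longest spans all had PU.1 and C/EBPb together and CTCF far away at the other end of a broad SMARCA5 peak. On chromosome 16 from 97334584 to 97371188 CTCF stood 33059 bp from PU.1, while PU.1 and C/EBPb were 271 bp apart. On chromosome 19 from 37336409 to 37359553 the distances were 20490 and 83 bp. A further region of chromosome 16, from 97245044 to 97265587, had 18926 and 111 bp. The region with the most peaks, on chromosome 16 from 23796474 to 23814496, held 12, and its strongest PU.1 and C/EBPb summits were 16 bp apart. The next, on chromosome 4 from 134953271 to 134984617, held 11. So did a region on chromosome 6 from 97426625 to 97436728, and each of these had 6 PU.1 peaks, 3 C/EBPb peaks and 1 CTCF peak. The widest region lay on chromosome 19 from 36911977 to 36950148 over 38172 bp. The narrowest, on chromosome 1 from 134446298 to 134446824, packed all 4 proteins into 527 bp with the summits within 106 bp.

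The 4-protein regions were spread over all 20 chromosomes used at 1.21 per Mb, and unevenly. Chromosome 11 had 2.21 per Mb and chromosome 19 had 2.03, while chromosomes 12 and 14 had 0.882 and 0.880. The X chromosome had 40 regions, 0.245 per Mb, against 1.28 per Mb over the autosomes. The density of all union regions also varied, with 13.7 per Mb on chromosome X and 52.2 on chromosome 11, and its part in the spread was not tested. As a share of union regions, 4-protein regions made up 1.79% on X (1.31 to 2.42), 4.43% on chromosome 7 (3.91 to 5.02) and 4.23% on chromosome 11 (3.75 to 4.76). On X they made up 6.97% of the regions that held CTCF, and on the autosomes from 10.8% to 14.5%. Whether the animals' sex, and so the number of X copies, bears on this was not tested.

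**Figure D5:**
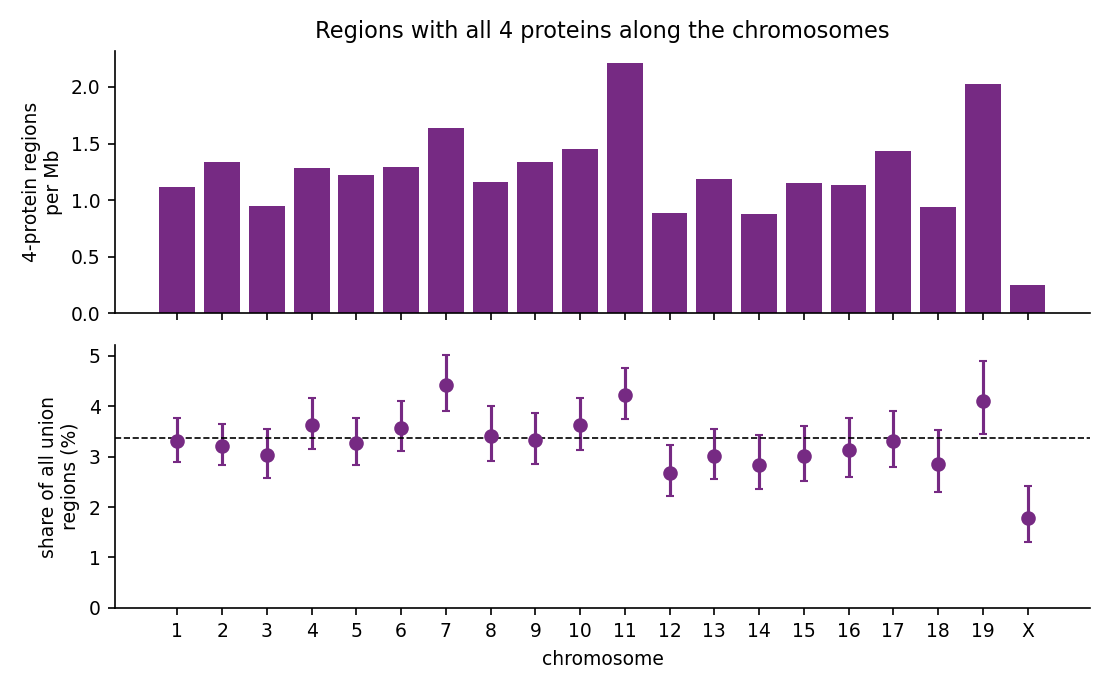
Top, 4-protein regions per Mb of each chromosome, measured between its first and last peak. Bottom, their share of all union regions of the chromosome (%) with 95% Wilson intervals, and a dashed line at the genome-wide 3.36%. Chromosomes 11 and 19 lead at 2.21 and 2.03 per Mb, and chromosome X is lowest at 0.245 per Mb and 1.79%.

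Neighbouring 4-protein regions lay a median of 230.0 kb apart, with quartiles of 72.6 and 767.4 kb. A further 4-protein region was present within 100 kb of 1586 regions, 51.1% (49.4 to 52.9), within 50 kb of 34.7% and within 10 kb of 8.67%. Of 2573 windows of 1 Mb, 1254 held a 4-protein region, and the 154 windows with 5 or more held 31.2% of them. The densest was on chromosome 10 from 127000001 to 128000000, with 12 among 90 union regions. Chromosome 8 had 12 among 91 from 106000001 to 107000000, and chromosome 2 had 11 from 32000001 to 33000000. These windows were chosen for their counts. The shares with a near neighbour and in windows with 5 or more were not computed for all union regions, whose density also varied. They thus do not show whether 4-protein regions cluster more than other sites do. The longest stretch without a 4-protein region ran over 35.5 Mb of chromosome X, from 100176405 to 135638765, and still held 366 union regions, 97 of them with CTCF and 113 with SMARCA5.

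The surroundings, which the rule did not use, were alike in number of sites. Within 50 kb of the centre, 4-protein regions had a median of 9 other union regions, against 9 without CTCF and 8 without C/EBPb. A site of CTCF alone lay within 50 kb of 57.1% of 4-protein regions, against 48.5% of regions without CTCF, 61.9% of those without C/EBPb and 59.2% of those without PU.1. For sites of SMARCA5 alone the shares were 40.4% for 4-protein regions, 43.2% without CTCF, 34.6% without C/EBPb and 36.5% without PU.1. Neighbouring regions share surroundings, so these shares carry no interval.

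Few regions sat right at the border of the rule. In 13 of the 3103, a protein was joined by less than 50 bp of overlap, most often CTCF with 8, and the smallest overlap was 3 bp. Just outside, 14 of 11676 regions without CTCF had a CTCF peak within 200 bp of their edge and 88 within 1000 bp. Of 2931 regions without C/EBPb, 12 had one within 200 bp and 52 within 1000 bp, and of 417 without PU.1, 9 and 24.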

How the data were processed

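The data were 4 consensus peak lists from chromatin immunoprecipitation of CTCF, PU.1, C/EBPb and SMARCA5, each 1 list for the series, with no value per library. Per the submitters' processing notes the tools included MACS2 2.2.7.1, STAR 2.7.9a, deepTools 3.5.1 and Picard 2.27.4, on mm39. The sources used here do not give their roles or how consensus peaks were formed. Per the deposited files, each peak has the authors' fold enrichment, read as a ratio over local background, and the authors' -log10 q. These were used within a list only. Starts were read as counted from 0.

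Union regions, layouts, summit distances and percentiles were computed with Python 3.11.15, NumPy 2.4.6, pandas 2.3.3 and SciPy 1.17.1, and plots with matplotlib 3.10.9. The region count and some of the summit distances were tested on simulated regions, but layouts and percentiles were not. Those regions held at most 1 peak of each protein, so the choice of the strongest peak was not tested. A factor was represented by its peak of highest fold enrichment. Shares have Wilson and medians exact order-statistic 95% intervals, which treat regions as independent and are not biological error. No library, depth or batch could be checked. Named regions are the 5 with the highest lowest percentile over the lists, the 5 with the smallest and the 3 with the largest summit span, the 3 with the most peaks, and the widest and narrowest, chromosome 18 passed over. One alternative, regions with 1 peak of each list, was added after seeing the data, and the others are in the closing section. The definition of the regions, and the measures, were chosen with earlier results of these data known.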

Additional observations from a re-analysis of the deposited data

How the results depend on the processing

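Of 96 values under 8 alternatives, 57 stayed within the 95% interval of the reported value (for the count, within 1.5 times) and 39 did not. Some values could not move, so this tally is not a measure of robustness. Choosing peaks by -log10 q or by closest summits leaves the count, the share with 1 peak per factor and the width as they were. The closest summits also leave the percentiles as they were. Taking as regions the SMARCA5 peaks that held a summit of each factor, of any strength (2968), leaving out peaks with -log10 q above 2000 (3099) and autosomes only (3063) moved no result. The -log10 q and autosome settings removed few of the 3103 regions, so they could move little. With only peaks above percentile 50 by fold enrichment kept, 233 regions were left, 91.8% with 1 peak per factor. Distances were then 123 bp for PU.1 to C/EBPb, 676 bp for CTCF to PU.1 and 665 bp for CTCF to C/EBPb. PU.1 and C/EBPb lay within 100 bp in 48.9%, CTCF lay between in 13.9%, the span was 1011 bp and the width 3388 bp, and percentiles were 80.5 for PU.1, 78.1 for CTCF and 77.3 for C/EBPb, which the selection fixes above 50. Ranked by -log10 q, percentiles were 71.6 for PU.1, 63.1 for CTCF and 51.9 for C/EBPb. With the closest summits, distances were 110, 479 and 614 bp, the share within 100 bp 48.4%, CTCF between 17.1% and the span 894 bp. Without regions over 5 kb, 69.1% had 1 peak per factor, distances were 149, 569 and 529 bp, the share within 100 bp 42.9%, the span 856.5 bp, the width 3078.5 bp and the CTCF percentile 60.9. With 1 peak of each list, chosen after seeing the data, 1762 regions were left, by construction 100% with 1 peak per factor, distances were 119.5, 513 and 529 bp, the share within 100 bp 46.7%, CTCF between 18.3%, the span 756.5 bp, the width 3081 bp and the CTCF percentile 60.5. Beyond what a setting's construction shows, the cause was not tested. In all 8, PU.1 and C/EBPb were the closest pair at the median and CTCF lay between the others in less than 33.3%. No paired analysis was possible because each list is a single table without columns for libraries, so leaving out a replicate could not be run either. Depth is unknown, so a protein missing from a region cannot be taken as unbound.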
